A study of Mus musculus with 6 samples.

Results

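Transcripts of 6 genes that bind, sense or move zinc and related metals were examined in gastrocnemius muscle: the metallothioneins *Mt1*, *Mt2* and *Mt3*, the metal sensor *Mtf1*, the zinc exporter *Slc30a1* and the metal importer *Slc39a14*. They were picked by symbol from 23997 gene symbols, and all 6 were above the mean of 0.5 FPKM that a gene needed to be tested, as were 13359 symbols in all. The choice was made with results of the same comparison known, since *Mt3* stood out between the genotypes, so the values of these 6 genes are a description, and the number of them past a limit is given further on only beside the share of all genes past it. Muscle came from 3 mice with the genotype HrasG12V/+ (Caggs-Cre+, referred to as HrasG12V mice) and from 3 littermates with the genotype Hras+/+ (Caggs-Cre-, WT), all 21 days old and untreated, with 1 library per mouse. WT mice still carried an unrecombined floxed G12V allele, and Cre was driven by the ubiquitous CAG promoter, so that the mutation was not limited to muscle fibers. All mice had a mixed SWR/J, 129S1/SvImJ and C57BL/6J background. Sex, litter and batch of the single mice are not in the labels used here. The comparison asks whether *Mt3* was alone in its difference or whether *Mt1*, *Mt2* and *Mtf1* differed as well.

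Metallothioneins are very small cytosolic proteins rich in cysteine that bind zinc and copper ions in clusters and release them again, and they also react with oxidants. *Mt1* and *Mt2* are made in most tissues and are induced by zinc, glucocorticoids and inflammatory cytokines, whereas *Mt3* was first known from brain. Free zinc in the cell is sensed by the transcription factor MTF1, which binds metal response elements in front of *Mt1*, *Mt2* and *Slc30a1*. SLC30A1 carries zinc out of the cell, and SLC39A14 (also called ZIP14) brings zinc, iron and manganese in. In skeletal muscle, metallothionein transcripts are known to increase in several forms of wasting.

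The metallothionein genes lie in a row on the plus strand of chromosome 8 of GRCm38, in the order *Mt4*, *Mt3*, *Mt2* and *Mt1* within 43.1 kb. In the GENCODE vM21 annotation *Mt3* (ENSMUSG00000031760.9) spans chr8:94152607-94154146, *Mt2* (ENSMUSG00000031762.7) chr8:94172664-94173568 and *Mt1* (ENSMUSG00000031765.8) chr8:94179082-94180327. *Mtf1* (ENSMUSG00000028890.13) lies at chr4:124802104-124849800 and *Slc30a1* (ENSMUSG00000037434.7) at chr1:191906767-191913247, both on the plus strand, and *Slc39a14* (ENSMUSG00000022094.15) at chr14:70303469-70351425 on the minus strand. The start used for promoters was that annotated in RefSeq, which can differ from the GENCODE start above. The *Mtf1* window, chr4:124802299-124802598, lay inside the GENCODE gene. Promoter sequences from RefSeq (GRCm38.p6), 250 bases before to 50 bases after the annotated start, matched 5 of the 6 genes. They were searched on both strands for the core of the metal response element, TGCACNC or TGCGCNC. *Mt2* held 4 matches, *Mt1* 3, *Slc30a1* 2, *Mt3* 1 and *Mtf1* 0. Of 32851 mouse promoter entries of the same length, 25.7% held at least 1 match, 7.11% at least 2, 1.97% at least 3 and 0.517% at least 4. The promoters of the 3 metallothioneins and of the zinc exporter are shown to set the several matches of *Mt1*, *Mt2* and *Slc30a1* beside the single match of *Mt3*. Each is written 5′ to 3′ on the plus strand, with matches on either strand in capitals, for chr8:94178839-94179138 (*Mt1*), chr8:94172368-94172667 (*Mt2*), chr8:94152357-94152656 (*Mt3*) and chr1:191906531-191906830 (*Slc30a1*).
Mt1: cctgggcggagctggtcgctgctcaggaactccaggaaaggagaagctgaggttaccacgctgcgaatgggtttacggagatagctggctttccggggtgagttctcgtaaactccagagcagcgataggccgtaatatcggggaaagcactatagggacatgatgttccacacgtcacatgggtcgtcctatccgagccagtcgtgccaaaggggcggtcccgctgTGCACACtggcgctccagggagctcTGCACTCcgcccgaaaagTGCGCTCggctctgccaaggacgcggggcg
Mt2: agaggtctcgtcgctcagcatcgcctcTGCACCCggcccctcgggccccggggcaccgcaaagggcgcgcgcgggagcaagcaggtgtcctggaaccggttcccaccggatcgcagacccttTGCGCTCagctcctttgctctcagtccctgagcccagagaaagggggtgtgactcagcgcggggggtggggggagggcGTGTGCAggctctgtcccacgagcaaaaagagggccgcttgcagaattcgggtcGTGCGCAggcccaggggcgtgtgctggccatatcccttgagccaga
Mt3: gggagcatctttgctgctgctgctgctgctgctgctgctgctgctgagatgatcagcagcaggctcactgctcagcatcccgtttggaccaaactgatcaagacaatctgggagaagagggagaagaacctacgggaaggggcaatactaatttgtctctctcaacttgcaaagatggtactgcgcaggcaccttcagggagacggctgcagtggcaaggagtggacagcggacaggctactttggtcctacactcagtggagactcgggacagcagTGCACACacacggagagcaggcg
Slc30a1: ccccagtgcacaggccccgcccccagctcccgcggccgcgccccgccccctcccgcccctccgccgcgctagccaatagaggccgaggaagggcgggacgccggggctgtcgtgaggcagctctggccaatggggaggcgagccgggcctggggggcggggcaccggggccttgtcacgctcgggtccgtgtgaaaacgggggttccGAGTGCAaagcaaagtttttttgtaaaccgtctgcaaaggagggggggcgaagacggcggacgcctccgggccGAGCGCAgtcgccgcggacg
A match describes the letters only. Of the 3 matches in the *Mt1* window, 2 lay after the annotated start, at bases 3 and 21, and 1 began 23 bases before it. The single match of *Mt3* began at base 28 after the annotated start.

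The values are FPKM, mapped fragments scaled by transcript length and library size, which Cuffnorm had scaled between libraries. Read counts were not used here, so the depth behind single values is known only through the spread between mice. The deposited FPKM summed to 413020 to 814013 per library, and the median of the genes tested was 6.39 to 6.64 FPKM. HrasG12V mouse 2276 stood apart by transcript length. Relative to the WT mean, its median log2 difference was 0.74 over 960 genes whose longest transcript is under 1000 bases and -0.35 over 4820 genes above 4000 bases, against medians of -0.12 to 0.02 for both classes in the other 5 mice. This touches the genes described here, because the longest transcripts are 536 bases for *Mt3*, 511 for *Mt2* and 1085 for *Mt1*, but 7631 for *Mtf1*, 5244 for *Slc30a1* and 5117 for *Slc39a14*. *Hras* itself was at 58.8, 28.9 and 16.0 FPKM in HrasG12V mice 2276, 2278 and 2279, compared with 36.8, 36.0 and 51.8 FPKM in WT mice 2277, 2280 and 2281, and FPKM do not separate its alleles. Of 6 muscle genes used to check the tissue, *Mylpf* and *Pvalb* ranged from 10760 to 36114 FPKM, while *Acta1* and *Myh4* were listed at 0 in all 6 mice, *Ckm* in 5 and *Tnnt3* in mouse 2276. A value of 0 in these files can therefore be a failed estimate.

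*Mt3*, the metallothionein known from brain, was at 25.7, 12.5 and 9.78 FPKM in HrasG12V mice 2276, 2278 and 2279, compared with 1.72, 3.06 and 3.71 FPKM in WT mice 2277, 2280 and 2281. Every HrasG12V mouse was above every WT mouse. Differences were taken on log2(FPKM + 0.1), where low levels appear closer together than they are. The HrasG12V mean exceeded the WT mean by 2.40 (standard error 0.43, 95% interval 1.38 to 3.42 from limma), a 5.27-fold difference. Within each genotype *Mt3* was a gene of wide spread. It differed 2.15-fold between the highest and lowest WT mouse, a wider log2 range than in 94.7% of the genes tested. Among the HrasG12V mice it differed 2.62-fold in the FPKM as deposited, wider than in 80.2% of the genes. The log2 difference was 1.99 without mouse 2276, which had the highest level, and between 2.09 and 2.69 with any other mouse left out. With each library's trend over transcript length removed, an alternative chosen after the data were seen, the difference was 2.23, and the HrasG12V mice lay 2.26, 2.39 and 2.05 above the WT mean. Mouse 2276 was then no longer the highest of the 3. Among the genes tested, *Mt3* ranked above 28.7% by its WT mean and above 72.2% by its HrasG12V mean.

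**Figure D1:**
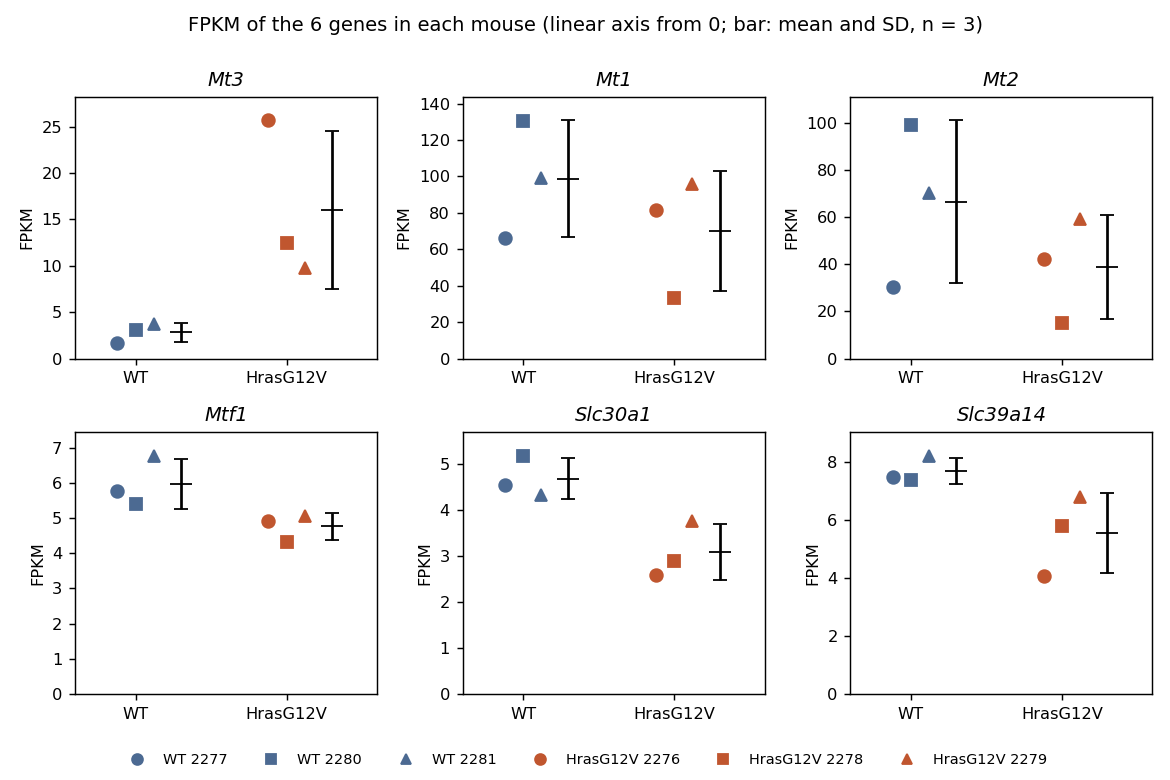
FPKM of *Mt3*, *Mt1*, *Mt2*, *Mtf1*, *Slc30a1* and *Slc39a14* in each mouse on linear axes from 0, with WT mice in blue and HrasG12V mice in orange, 1 symbol per mouse, and the mean with SD (n = 3) as a bar beside them. *Mt3* lies above the WT range in all 3 HrasG12V mice, *Mt1* and *Mt2* overlap between genotypes, and the other 3 genes lie below the WT range.

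*Mt1* and *Mt2*, the widely expressed metallothioneins, did not share the pattern of *Mt3*. *Mt1* was at 81.7, 33.0 and 95.6 FPKM in HrasG12V mice 2276, 2278 and 2279, compared with 66.3, 130.5 and 99.2 FPKM in WT mice 2277, 2280 and 2281. The genotypes overlapped, with means of 70.1 ± 32.9 (SD, n = 3) in HrasG12V and 98.7 ± 32.1 FPKM (SD, n = 3) in WT muscle. The log2 difference of *Mt1* was -0.58 (standard error 0.47), and its 95% interval, -1.69 to 0.54, reaches from a marked decrease to a modest increase. *Mt2* was at 42.3, 15.2 and 59.0 FPKM in the same HrasG12V mice, compared with 30.3, 98.9 and 70.4 FPKM in the same WT mice. The *Mt2* values overlapped too, with means of 38.8 ± 22.1 (SD, n = 3) and 66.5 ± 34.5 FPKM (SD, n = 3), a log2 difference of -0.82 (standard error 0.62, 95% interval -2.31 to 0.67). The difference between these genes and *Mt3* was not tested, because *Mt3* was chosen for its own difference.

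Both levels moved mainly between individual mice. *Mt1* and *Mt2* put the 6 mice in the same order, from 2280, 2281, 2279, 2276 and 2277 down to 2278, with both genotypes mixed in it, in the FPKM as deposited. HrasG12V mouse 2278 was lowest for both genes and WT mouse 2280 highest. Among the WT mice alone *Mt1* differed 1.97-fold and *Mt2* 3.27-fold, log2 ranges wider than in 93.9% and 97.4% of the genes tested. The log2 difference between genotypes therefore rested on single mice. Without mouse 2278 it was -0.10 for *Mt1* and -0.25 for *Mt2*, without WT mouse 2280 it was -0.35 and -0.46, without WT mouse 2277 it was -0.84 and -1.31, and without mouse 2279 it was -0.87 and -1.23. With the trend over transcript length removed the differences were -0.70 and -0.98. HrasG12V mice 2278 and 2276 were then the lowest of the 6, at -1.36 and -0.93 from the WT mean for *Mt1* and -1.74 and -1.42 for *Mt2* on the log2 scale, while mouse 2279 lay above the WT mean, at 0.19 and 0.21, so the genotypes still overlapped. *Mt2* shares an overlap of 749 bases with the antisense gene Gm45774, and 45.8% of the 50-base windows of its transcripts occur on the other strand in that gene, so its FPKM is uncertain to that extent if strand was not used in counting. *Mt1* and *Mt3* shared 0 windows with any other annotated transcript, and the metallothioneins shared 0 with each other.

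Because FPKM are scaled per length, the metallothioneins can be compared as levels within a mouse. The length trend of mouse 2276 and the antisense overlap of *Mt2* limit this comparison, and the values below are not corrected for them. *Mt3* was a minor part of the summed *Mt1*, *Mt2* and *Mt3* FPKM in every mouse. It made up 1.76%, 1.32% and 2.14% of that sum in WT mice 2277, 2280 and 2281 and 17.2%, 20.6% and 5.95% in HrasG12V mice 2276, 2278 and 2279. The summed level itself overlapped between genotypes, at 60.7 to 164 FPKM in HrasG12V and 98.2 to 232 FPKM in WT mice. *Mt1* was 26.8 to 42.6 times the level of *Mt3* in WT muscle and 2.64 to 9.77 times its level in HrasG12V muscle. Relative to *Mt2*, *Mt1* stayed between 1.32 and 2.19 times in WT and between 1.62 and 2.17 times in HrasG12V mice.

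*Mtf1*, which encodes the zinc-sensing transcription factor, was at 4.92, 4.33 and 5.05 FPKM in HrasG12V mice 2276, 2278 and 2279, compared with 5.76, 5.40 and 6.77 FPKM in WT mice 2277, 2280 and 2281. All 3 HrasG12V values were below the WT range, by a small margin. The log2 difference was -0.32 (standard error 0.15, 95% interval -0.68 to 0.05). With the trend over transcript length removed it was -0.11, and the genotypes overlapped, since mouse 2276 then lay 0.30 above the WT mean and mice 2278 and 2279 lay 0.39 and 0.24 below it on the log2 scale. Part of the *Mtf1* transcript, 7.55% of its 50-base windows, also occurs in the antisense neighbor 1110065P20Rik.

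Both transporters had lower means in HrasG12V muscle. *Slc30a1*, the exporter of zinc from the cell, was at 2.59, 2.88 and 3.76 FPKM in HrasG12V mice 2276, 2278 and 2279, compared with 4.53, 5.17 and 4.32 FPKM in WT mice 2277, 2280 and 2281. The genotypes did not overlap, and the log2 difference was -0.60 (standard error 0.18, 95% interval -1.04 to -0.16). Leaving out single mice gave -0.75 to -0.49, and the value was -0.46 with the trend over transcript length removed, where the genotypes still did not overlap. *Slc39a14*, the importer of zinc, iron and manganese, was at 4.07, 5.78 and 6.80 FPKM in the HrasG12V mice, compared with 7.50, 7.40 and 8.22 FPKM in the WT mice. Here too every HrasG12V mouse was below every WT mouse. The log2 difference of -0.49 (standard error 0.21, 95% interval -0.998 to 0.01) was -0.29 without mouse 2276, the lowest of the 6, and -0.36 with the length trend removed. The ratio of *Slc39a14* to *Slc30a1*, as levels per length, was 1.58 to 2.01 in HrasG12V and 1.43 to 1.90 in WT mice, with overlap. *Slc30a1* shares 8.01% of its 50-base windows with the antisense gene 1700034H15Rik, and *Slc39a14* 0.196% with other genes.

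**Figure D2:**
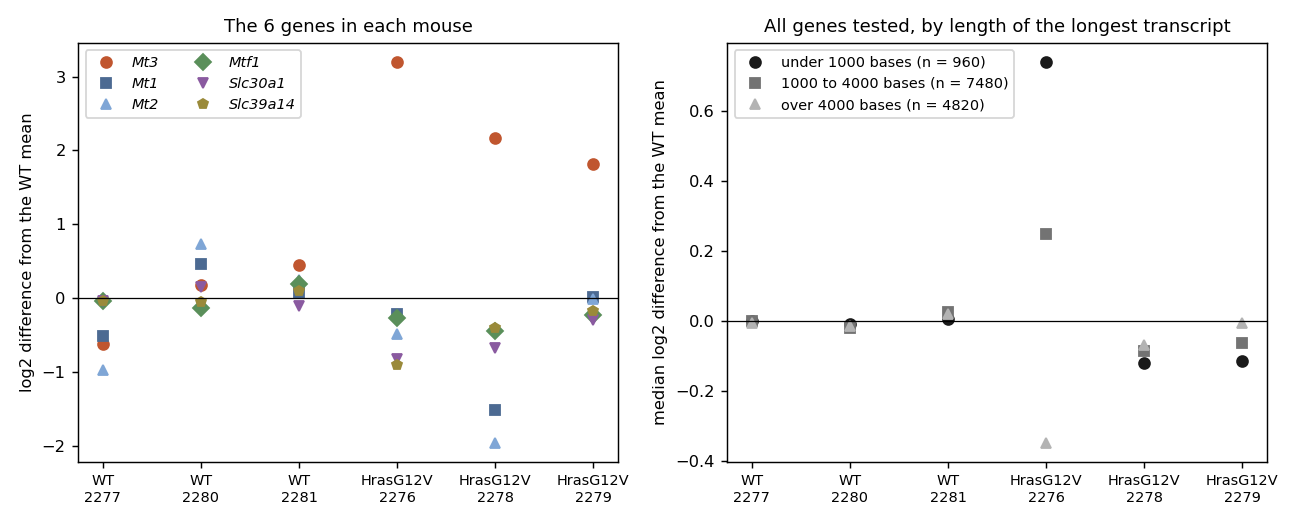
Left, log2(FPKM + 0.1) of each of the 6 genes in each mouse minus the WT mean of that gene. Right, the median of the same difference over all genes tested, by the length of the longest transcript. *Mt3* is far above 0 in the 3 HrasG12V mice, *Mt1* and *Mt2* are lowest in mouse 2278, and mouse 2276 separates short transcripts (0.74) from long ones (-0.35).

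Of the 6 genes, 5 had a log2 difference below 0, as did 53.4% of all genes tested. Set against all genes, 4 of the 6 genes did not overlap between genotypes, 1 higher and 3 lower, where 18.5% of the 13359 genes tested did not overlap, 8.11% with higher and 10.4% with lower levels in HrasG12V mice. An unadjusted limma p below 0.05 was reached by 1 of the 6 with a higher level (*Mt3*), against 5.18% of all genes, and by 1 with a lower level (*Slc30a1*), against 4.99% of all genes. After Benjamini-Hochberg adjustment over all genes, 0 of the 6 were below 0.05 in limma, against 0.0599% of all genes tested. Since *Mt3* guided the choice, nothing is read from these counts.

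The remaining zinc and copper handling genes were taken from family lists, 42 genes without the 6 above, of which 32 were tested. With limma, 0 of the 32 had an unadjusted p below 0.05, against 10.2% of all genes, and 0 an adjusted p below 0.05. Their median log2 difference was -0.13, against -0.03 over all genes tested, with 11 higher and 21 lower values. The result depended on mouse 2276. Without it 11 of the 32 had an unadjusted limma p below 0.05, against 29.8% of all genes, 2 of them higher and 9 lower in HrasG12V muscle, and 3 an adjusted limma p below 0.05 (*Cp*, *Sco2* and *Cox17*), against 9.66% of all genes. With the length trend removed 2 of the 32 had an unadjusted limma p below 0.05, against 11.1% of all genes.

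The Slc30 family moves zinc out of the cytosol, into vesicles or out of the cell. All 6 family members tested beside *Slc30a1* had log2 differences below 0, as did 53.4% of all genes, with a median of -0.32. Of them 0 passed an unadjusted limma p of 0.05, against 10.2% of all genes. The values ran from -0.71 for *Slc30a2* (95% interval -1.80 to 0.38), which loads zinc into vesicles, to -0.11 for *Slc30a5* (95% interval -0.59 to 0.37), which supplies the secretory pathway. The difference of *Slc30a2* ranged from -1.11 without mouse 2276 to -0.39 without mouse 2278 or WT mouse 2280. Without mouse 2276, *Slc30a2*, *Slc30a6* and *Slc30a9* passed an unadjusted limma p of 0.05, as did 29.8% of all genes. Their log2 differences were then -1.11, -0.38 and -0.58, while that of *Slc30a5* changed sign, to 0.08. *Slc30a4* and *Slc30a6* did not overlap between genotypes, at 5.66 to 8.49 against 8.65 to 10.3 FPKM and at 4.26 to 5.21 against 5.56 to 5.99 FPKM, lower without overlap as were 10.4% of all genes. Their log2 differences had 95% intervals that include 0, -0.81 to 0.13 and -0.64 to 0.04. The abundant *Slc30a9* was at 30.2 ± 6.64 (SD, n = 3) in HrasG12V and 39.7 ± 4.06 FPKM (SD, n = 3) in WT mice. *Slc30a3*, *Slc30a8* and *Slc30a10* had a mean below 0.5 FPKM and were not tested.

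The Slc39 family carries zinc into the cytosol. Over the 9 family members tested beside *Slc39a14*, 3 were higher and 6 lower, and the median log2 difference was -0.03. Of them 0 passed an unadjusted limma p of 0.05, against 10.2% of all genes. Without mouse 2276, 1 of the 9 did, against 29.8% of all genes: *Slc39a3*, with a log2 difference of -0.38. The abundant *Slc39a1* of the plasma membrane and *Slc39a7* of the endoplasmic reticulum had log2 differences of 0.06 (95% interval -0.57 to 0.68) and -0.03 (95% interval -0.58 to 0.52). *Slc39a6* had the highest value of this family, 0.08 (95% interval -0.59 to 0.75). *Slc39a10* followed *Slc39a14* at the lower end with -0.36 (95% interval -1.23 to 0.50), and its low mean came from mouse 2276, at 2.01 FPKM, while mice 2278 and 2279 were at 5.31 and 4.63 FPKM and the WT mice at 4.24 to 5.42 FPKM.

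Of the copper handling genes, 17 of 19 were tested, 8 with log2 differences above 0 and 9 below. Of them 0 passed an unadjusted limma p of 0.05, against 10.2% of all genes. Without mouse 2276, 7 of the 17 did, against 29.8% of all genes: *Commd1*, *Cox11*, *Cox17*, *Sco2* and *Slc31a1* were then lower, with log2 differences of -0.75 to -0.44, and *Cp* and *Heph* higher, with 1.01 and 0.61. The log2 differences ran from 0.43 for *Atox1*, a copper chaperone, to -0.58 for *Atp7a*, a copper-exporting pump. Without mouse 2276 these values were 0.01 and -0.04. *Atox1* was at 132 FPKM there and at 49.7 to 60.5 FPKM in the other 5 mice, and *Atp7a* at 1.35 against 4.11 to 4.55 FPKM. *Sod1*, the copper-zinc superoxide dismutase, was likewise at 378 FPKM in mouse 2276 and at 125 and 209 FPKM in mice 2278 and 2279, around the 173 to 181 FPKM of WT mice. *Slc31a1*, the main copper importer, was at 13.2, 10.6 and 7.88 FPKM in the HrasG12V mice, compared with 13.2 to 13.7 FPKM in WT mice (log2 difference -0.37, 95% interval -0.88 to 0.13). *Cp*, which encodes the copper-binding ferroxidase ceruloplasmin, was at 11.3 and 10.6 FPKM in mice 2278 and 2279, and at 3.08 FPKM in mouse 2276, compared with 5.08 to 5.76 FPKM in WT mice.

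**Figure D3:**
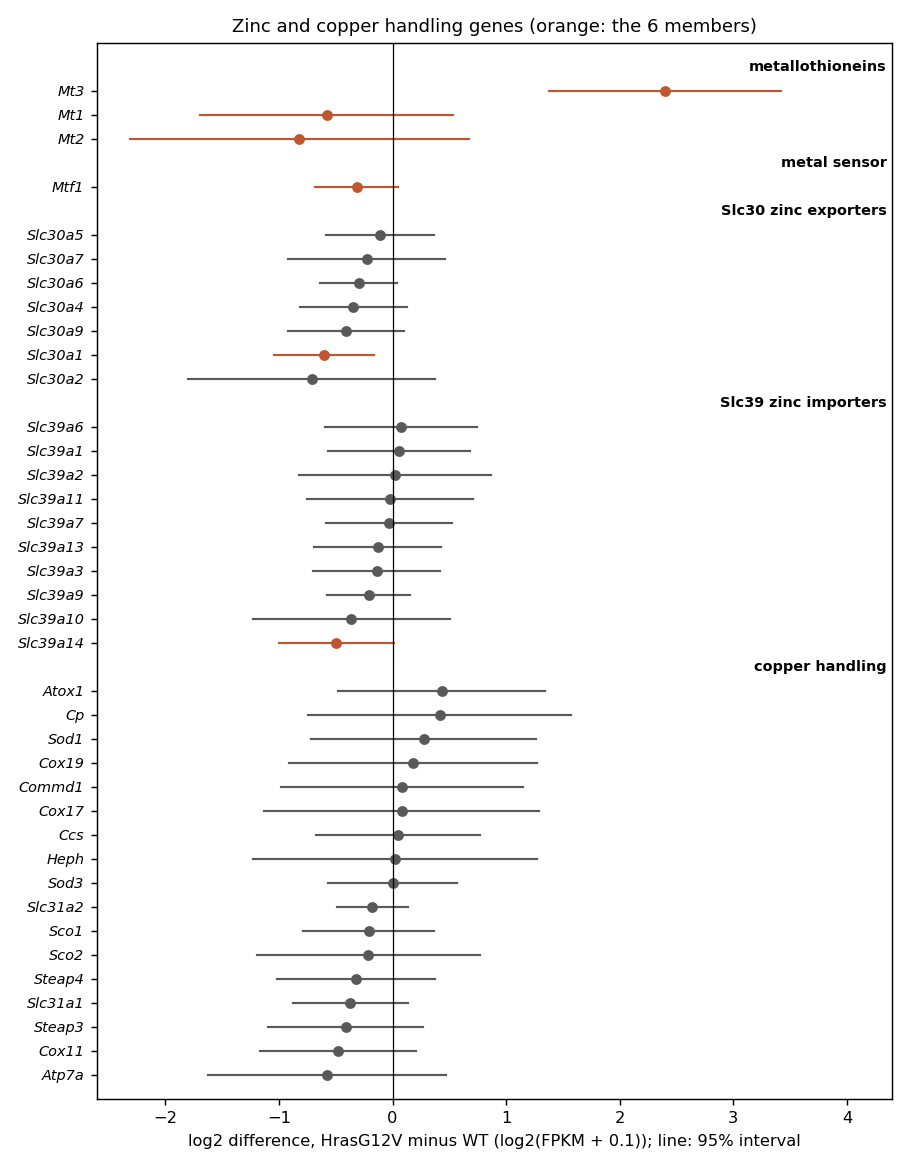
Log2 difference (HrasG12V minus WT, log2(FPKM + 0.1)) of the zinc and copper handling genes tested, with the 95% interval from limma as a line, the 6 members in orange and the others in gray. *Mt3*, at 2.40, lies far to the right of the other genes, and the 7 Slc30 genes all lie to the left of 0.

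Genes that respond to the same signals as *Mt1* and *Mt2* were described beside them. Of 8 genes listed as MTF1 targets, 3 are among the 6 genes above. Of the other 5, the iron exporter *Slc40a1* (ferroportin) was lower, going from 15.8 ± 1.92 (SD, n = 3) in WT to 6.13 ± 2.20 FPKM (SD, n = 3) in HrasG12V muscle. Its values were 5.05, 4.68 and 8.65 FPKM in HrasG12V mice 2276, 2278 and 2279 and 14.9, 18.0 and 14.4 FPKM in WT mice, with no overlap. The log2 difference was -1.40 (standard error 0.26, limma adjusted p = 0.288) and kept its sign and an unadjusted p below 0.05 with each mouse left out. *Gclc*, *Pgf*, *Slc39a10* and *Sepw1* did not pass an unadjusted p of 0.05 in limma, with log2 differences of 0.26, 0.48, -0.36 and -0.13, so that 1 of these 5 was lower by that limit, where 4.99% of all genes were.

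Of 11 glucocorticoid-responsive genes, 2 fell and 0 rose at an unadjusted limma p below 0.05, where 4.99% of all genes fell and 5.18% rose. The median log2 difference was -0.33, against -0.03 over all genes tested. *Pdk4*, an inhibitor of pyruvate oxidation, was at 240, 101 and 405 FPKM in HrasG12V mice 2276, 2278 and 2279, compared with 681 to 1241 FPKM in WT mice (log2 difference -2.07, limma adjusted p = 0.382). *Zbtb16*, a transcription factor, was at 16.2, 17.6 and 17.4 FPKM in the HrasG12V mice, compared with 27.4 to 35.7 FPKM in the WT mice (log2 difference -0.88, limma adjusted p = 0.288). Other genes of the list, such as *Fkbp5* and *Ddit4*, were low in mice 2276 and 2278 and above the WT range in mouse 2279, at 34.2 and 99.8 FPKM. At the upper end of the list *Cebpd* had a log2 difference of 0.51, which came from mouse 2279, at 55.5 FPKM against 10.6 to 17.3 FPKM in the other mice.

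Of 10 genes that respond to interleukin 6 and STAT3, 2 rose and 0 fell at an unadjusted limma p below 0.05, where 5.18% of all genes rose and 4.99% fell. The median log2 difference was 0.42, against -0.03 over all genes tested. *Bcl3* was at 1.31, 3.39 and 2.95 FPKM in HrasG12V mice 2276, 2278 and 2279, compared with 1.02 to 1.13 FPKM in WT mice (log2 difference 1.06, limma adjusted p = 0.454). *Junb* was at 29.0, 19.5 and 11.7 FPKM in these mice, compared with 7.38 to 12.4 FPKM in WT mice, with overlap (log2 difference 1.05, limma adjusted p = 0.456). These calls were not stable. The unadjusted limma p of *Bcl3* exceeded 0.05 in 5 of the 6 sets of 5 mice, all but the set without mouse 2276, and that of *Junb* in 4 of 6, without WT mouse 2277 or 2281 or without mouse 2276 or 2278. *Timp1* was lowest of the list, at -0.77, a value that went from -1.23 without mouse 2276 to -0.04 without mouse 2279.

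The genes around the metallothionein cluster were read to see whether the difference of *Mt3* extended along the chromosome. Before the cluster, the coding genes *Nudt21*, *Ogfod1* and *Bbs2* had log2 differences of 0.18, -0.25 and 0.11. On the other side *Nup93*, 34.2 kb from *Mt1*, had a log2 difference of 0.11 and *Herpud1* of -0.28. *Nlrc5*, a regulator of antigen presentation genes 254 kb from *Mt1*, was at 0.146, 1.66 and 1.88 FPKM in HrasG12V mice 2276, 2278 and 2279, compared with 0.101 to 0.164 FPKM in WT mice, a different order of mice from that of *Mt3*. In limma 0 of these genes had an unadjusted p below 0.05. *Mt4*, the first gene of the cluster, was listed at 0 in all 3 HrasG12V mice and in WT mouse 2277, compared with 0.550 and 0.324 FPKM in WT mice 2280 and 2281.

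**Figure D4:**
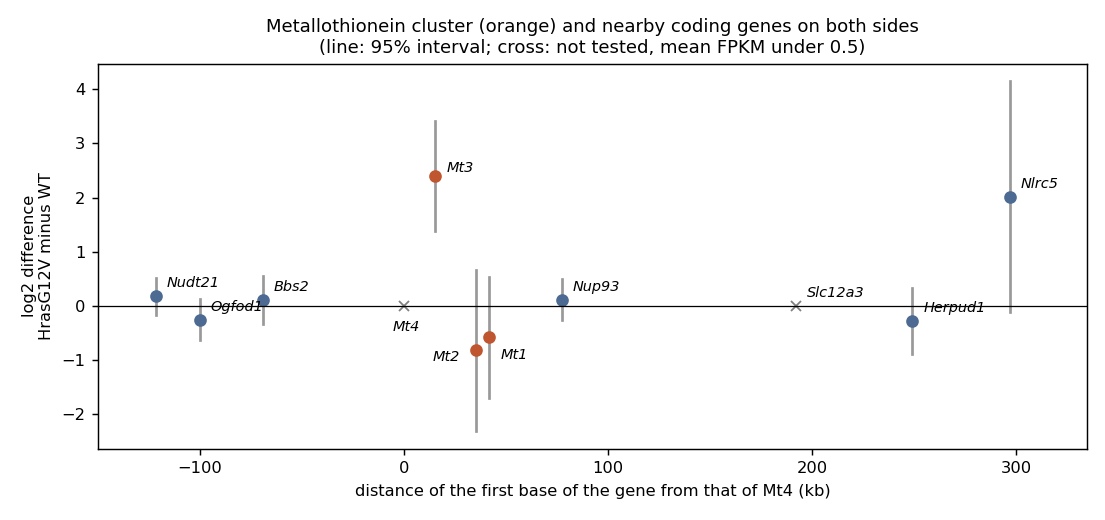
Log2 difference (HrasG12V minus WT) with its 95% interval for the metallothionein genes (orange) and nearby coding genes on both sides (blue), by distance from *Mt4* in kb. Crosses at 0 mark the place of genes with a mean below 0.5 FPKM, which have no value. *Mt3* is at 2.40 while *Mt2* and *Mt1*, at -0.82 and -0.58, and the nearest flanking genes lie near or below 0. The more distant *Nlrc5* is at 2.01, with an interval that includes 0.

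Likeness between genes was measured as the root-mean-square difference between their log2(FPKM + 0.1) values over the 6 mice, each gene centered on its own mean. Among 12177 other genes, *Mt2* was the second closest to *Mt1* (0.29) and *Mt1* the closest to *Mt2*. The closest to *Mt1* was *Rps27* (0.28), followed after *Mt2* by *Klk1b22*, Gm14378 and *Smyd2*. The next closest to *Mt2* were *Mir1943*, *Rps27*, *Prg4* and *Lypd6* (0.40 to 0.48). The closest to *Mt3* were *Mpv17l* (0.43), *Pcbd1* (0.43), *Snhg9* (0.47), *Chrna1* (0.51) and *Tbx21* (0.51), against 1.31 for *Mt3* around its own mean. *Mt1* and *Mt2* were at 1.61 and 1.78 from *Mt3*, at ranks 10714 and 11489. These distances include the genotype difference for which *Mt3* was chosen, so nothing is read from the ranks or from its closest genes. *Mpv17l* was at 7.33, 5.38 and 3.90 FPKM in HrasG12V mice 2276, 2278 and 2279, compared with 1.25 to 1.64 FPKM in WT mice. The 6 points behind each value share the genotypes and the length trend of mouse 2276, and *Rps27* has near-identical copies in the genome, which makes its FPKM uncertain.

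In bulk muscle, fewer cells of a type and less RNA per cell cannot be told apart. Markers of other cell types were therefore summed beside *Mt3*. The 6 nervous tissue markers summed to 2.46 to 4.48 FPKM in HrasG12V and 1.91 to 3.98 FPKM in WT mice, overlapping, with 1 of 6 above the mean of 0.5 FPKM and *Gfap* at 0.118 FPKM or less in every mouse. Brown adipocyte markers summed to 11.0, 46.5 and 11.6 FPKM in mice 2276, 2278 and 2279 and to 2.40 to 6.30 FPKM in WT mice, with 2 of 4 higher at an unadjusted limma p below 0.05, as were 5.18% of all genes. The 4 neutrophil markers were all higher by that limit, at summed levels of 19.7 to 127 FPKM against 0.706 to 3.53 FPKM. White adipocyte markers summed to 58.2 to 261 FPKM against 11.8 to 62.2 FPKM, overlapping, with 2 of 6 higher, and macrophage markers to 42.7 to 70.6 FPKM against 37.2 to 42.4 FPKM, with 1 of 5 higher. B and T cell markers were high in mice 2278 and 2279, at 54.7 to 69.4 and 22.9 to 27.2 FPKM, but at 1.30 and 1.01 FPKM in mouse 2276. They reached at most 1.07 FPKM in WT mice, with 3 and 4 of 4 markers higher. Endothelial markers summed to 104 to 117 FPKM in HrasG12V and 137 to 163 FPKM in WT mice, with 2 of 4 lower, as were 4.99% of all genes. Schwann cell markers summed to 113, 342 and 416 FPKM in mice 2276, 2278 and 2279 and to 77.5 to 244 FPKM in WT mice, with 0 of 4 past the limit. Markers of fibroblasts and tendon summed to 468 to 1583 FPKM against 1038 to 2495 FPKM in WT mice, overlapping, with 1 of 4 lower. The part of these cells in the differences of the metal genes was not tested.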

How the data were processed

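RNA of gastrocnemius muscle from 3 HrasG12V and 3 WT mice went into strand-specific mRNA libraries read from a single end. Per the labels and the study's methods, the authors used bcl2fastq, TopHat, Cufflinks and Cuffnorm on GRCm38 (mm10), and deposited FPKM per gene symbol, 1 value per library. Tool versions, annotation and strand setting were not given in the sources used here. Ratios of low values between libraries did not fall into steps (at most 3.28% of genes in any interval of width 0.02 on the log2 scale), so read numbers could not be rebuilt and count models were left out.

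From the deposited FPKM, log2(FPKM + 0.1) was computed for 13359 genes with a mean of at least 0.5 FPKM. HrasG12V and WT mice were tested against each other in limma 3.58.1, R 4.3.3 (moderated variances with a trend over abundance, no covariate, Benjamini-Hochberg adjustment over all genes), which was tested on simulated data. P-values measure the spread between 3 mice per group. Members and lists were chosen with earlier results of these data known. Named were the 6 members, every listed gene with an unadjusted p below 0.05, the extremes of each list, coding genes next to the metallothionein cluster (not all are reported here) and the 5 genes most like each metallothionein; other list genes given with values, and the muscle and cell markers named singly, were chosen after their values were seen. Symbols, coordinates and transcript lengths came from GENCODE vM21 (lengths for 99.3% of genes tested), promoters from RefSeq. Shared windows were identical 50-base stretches of annotated transcripts on either strand. Alternatives were pseudocounts of 1 and 0.01, no filter, a mean of at least 1 FPKM, quantile normalization, median centring, equal totals, no moderation, array weights and leaving out each mouse. Removal of the length trend (lowess per library) was added after seeing the data. Other steps ran in Python 3.11.15 with numpy 2.4.6, pandas 2.3.3 and, for plots, matplotlib 3.10.9.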

Additional observations from a re-analysis of the deposited data

How the results depend on the processing

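The log2 differences of the 6 members kept their sign under all 16 alternatives, and those of *Mt3* stayed between 1.99 and 2.69. With the length trend removed *Mtf1* moved from -0.32 to -0.11, by more than the standard error of its difference (0.15). Left out in turn, single mice gave ranges of -0.87 to -0.10 for *Mt1*, -1.31 to -0.25 for *Mt2* and -0.65 to -0.29 for *Slc39a14*. Of 32 zinc and copper genes outside the members, 0 had an unadjusted limma p below 0.05 as reported, 1 with quantile normalization, 1 with equal totals, 2 without moderation, 2 with the length trend removed and 6 with array weights, and 0 to 11 with a mouse left out. Over all genes 1358 had an unadjusted p below 0.05, 712 with equal totals, 3042 with array weights and 606 to 3979 with a mouse left out. After adjustment 8 did, 5 with a pseudocount of 1, 1 without moderation, 572 with array weights and 7 to 1291 with a mouse left out. Array weights gave mouse 2276 a weight of 0.0933. Among the members, *Hras* and the listed genes named for a call or as an extreme of their list, signs changed for 4. Of the zinc and copper genes called only without mouse 2276, *Cox17* and *Commd1* went from 0.08 each to -0.52 and -0.44. Sign changes of other genes are not listed here. *Slc30a5* went to 0.0724 with array weights and ranged from -0.205 to 0.0762 with a mouse left out (above 0 without mouse 2276). *Slc39a6* went to -0.0161 with quantile normalization and ranged from -0.102 to 0.270 (below 0 without mouse 2278 or WT mouse 2277). *Cebpd* ranged from -0.164 to 1.03 and *Hras* from -0.925 to 0.0104, each with its sign changed without mouse 2279. The cause of these changes was not tested. Unadjusted calls of *Slc40a1*, *Pdk4* and *Zbtb16* held under all 16 alternatives. No analysis paired by litter was possible, because the litters of the single mice are not in the labels used here. With no read counts, the precision of low values such as *Mt3* in WT mice rests on 3 mice per genotype.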
